A study of Mus musculus with 45 samples.

Results

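The genes described here are Folr2, Lyve1, Pf4, Mrc1, Cbr2, Retnla, Tmem119 and Sult1a1, 8 of the 23594 gene rows of a mouse lung RNA-seq table, named as genes of resident interstitial macrophages. They were chosen by name with their levels in these same libraries already known, so their levels are given as a description and carry no p-value. The libraries hold poly(A) RNA of interstitial macrophages (IM), inflammatory monocytes (iMo) and alveolar macrophages (AM) that were purified by cell sorting out of C57BL/6J mouse lungs, 2, 6 and 20h after intraperitoneal (ip) lipopolysaccharide (LPS, the endotoxin of Gram-negative bacteria) or at 0h. IM and iMo have 2 libraries at each of the 4 times, and AM have 4 before LPS (0h), 2 after 2h, 3 after 6h and 2 after 20h, in all 27 libraries in 12 groups. The labels name no other treatment and no genotype beyond the strain, and they give neither the age of the mice, the dose, nor the markers of the sort.

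Interstitial macrophages live in the tissue between the airspaces and the vessels of the lung, whereas alveolar macrophages live on the airspace side and inflammatory monocytes enter from the blood. In mice a subset of tissue macrophages that lies along vessels is recognised by the hyaluronan receptor LYVE1, the folate receptor FOLR2 and the mannose receptor MRC1 (CD206), and it takes up material from its surroundings and carries little inflammatory gene activity at rest. The genes fall into uptake receptors (Mrc1, Lyve1, Folr2), secreted proteins (Pf4, Retnla), enzymes (Cbr2, Sult1a1) and the membrane protein gene Tmem119, best known as a marker of microglia in the brain.

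Levels are given in TPM, a unit that scales reads by gene length and by library, so that levels of different genes can be set side by side. In IM 0h libraries Retnla, Pf4, Folr2, Cbr2 and Lyve1 each exceeded 100 TPM in both libraries, Mrc1 exceeded 60 TPM and Sult1a1 lay near 20 TPM. In all 6 IM libraries after LPS, 7 of the 8 genes were below both IM 0h libraries, all except Tmem119. Of all genes tested, 27.6% had that arrangement. The share belongs to a contrast that the choice of genes used, so nothing is read from the count.

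**Figure D1:**
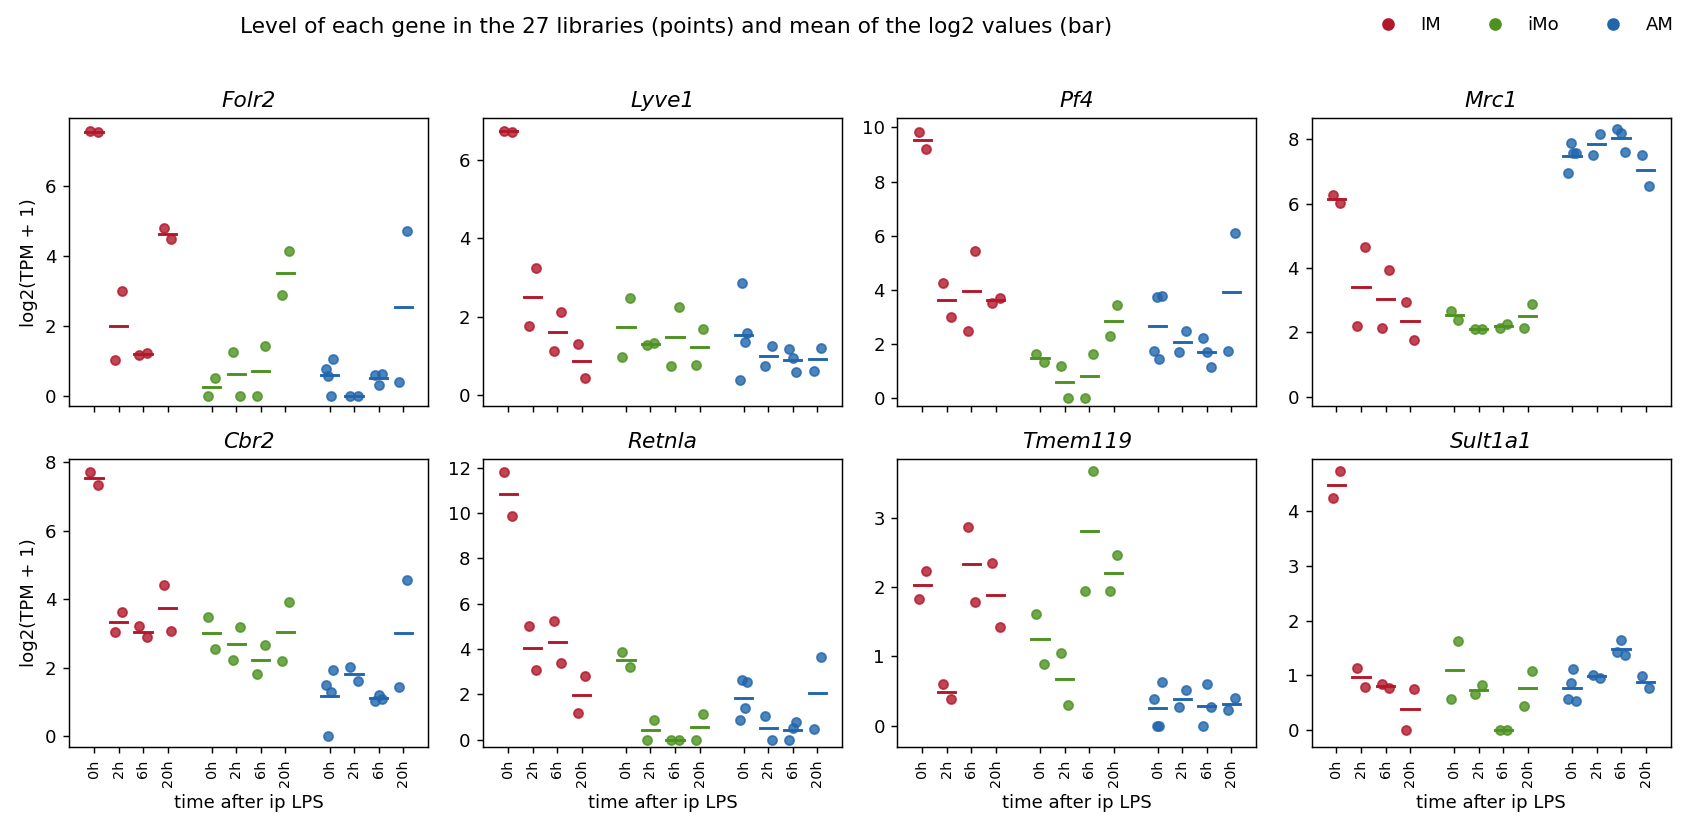
Level of each of the 8 genes in every library (points) and the mean of the log2 values (bars) on a log2(TPM + 1) scale, for IM, iMo and AM at 0, 2, 6 and 20h after ip LPS. The 2 IM 0h libraries stand above all other libraries for Folr2, Lyve1, Pf4, Cbr2, Retnla and Sult1a1, AM libraries are highest for Mrc1, and Tmem119 is low everywhere.

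The IM label was checked against its markers. At 0h the complement gene C1qa stood at 1077 and 973 TPM in IM, against 2.85 and 2.05 TPM in iMo. Of 14 genes shared by interstitial macrophages, 11 (78.6%) were called higher in IM 0h against AM 0h and 5 (35.7%) against iMo 0h. All 14 reached 5 TPM in 2 libraries without resting on IM 0h alone. Among all genes that did so, 12.8% were called higher against AM 0h and 4.19% against iMo 0h, so both shares of the list were larger. After LPS C1qa in IM was at 20.7 and 59 TPM at 2h, 18.1 and 33.9 TPM at 6h and 328 and 324 TPM at 20h, so this marker was high in IM at 0h but not at 2h and 6h. A list of 20 alveolar macrophage markers summed to 876 and 1150 TPM in IM, against 8507 to 20338 TPM in AM. Of 11 classical monocyte markers, 10 were called higher and 1 lower in IM 0h against AM 0h. Against iMo 0h, 0 were called higher and 2 lower, so this list set IM less apart from iMo than from AM. These markers summed to 4045 and 7390 TPM in IM 0h and 4936 to 11062 TPM in IM after LPS. In iMo 0h they summed to 10857 and 15192 TPM. IM libraries also held transcripts of other cells. A list of 12 neutrophil markers summed to 17285 to 56929 TPM in the 6 IM libraries after LPS and to 11237 and 22576 TPM in IM 0h, against 137 and 216 TPM in iMo 0h and 25 to 83.2 TPM in AM 0h. Column sums ran from 331473 to 551635 TPM, 4068 to 7298 genes reached 5 TPM, and the ribosomal precursor row Rn45s held 4.33 to 33.3% of a column. In IM 0h 6895 and 6905 genes reached 5 TPM, against 4068 and 5374 at 2h, 5707 and 4913 at 6h and 6667 and 6128 at 20h. Rn45s held 5.17 and 4.87% in IM 0h, 24 and 4.33% at 2h, 6.05 and 33.3% at 6h and 11.3 and 12.9% at 20h. Every IM library after LPS thus had fewer genes at 5 TPM than IM 0h. The part of this in the differences from IM 0h was not tested. The labels do not say whether replicates came from separate mice, so errors measure the spread between these libraries. These are bulk samples, in which fewer cells of a type and less RNA per cell cannot be told apart. Title codes also differ: the IM and iMo libraries of 0h and 3 of the 4 AM libraries of 0h carry one code and the libraries after LPS carry other codes, so time after LPS and title code cannot be told apart except through 1 AM library.

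Mrc1 encodes the mannose receptor, a C-type lectin that takes up mannosylated glycoproteins. Its level was 77.0 and 63.9 TPM in IM 0h, against 4.26 and 5.33 TPM in iMo 0h and 123, 190, 190 and 235 TPM in AM 0h. IM 0h thus lay above both iMo 0h libraries and below all 4 AM 0h libraries, and AM held the first 4 places among the 12 groups. After LPS the level in IM was 3.59 and 23.9 TPM at 2h, 3.36 and 14.2 TPM at 6h and 6.67 and 2.41 TPM at 20h. In AM it was 184 and 289 TPM at 2h, 193, 291 and 321 TPM at 6h and 92.7 and 183 TPM at 20h. Every IM library after LPS was below IM 0h, whereas AM libraries overlapped with AM 0h at each time. The 8 iMo libraries stayed between 3.30 and 6.36 TPM.

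Lyve1 encodes a receptor for hyaluronan, the large sugar polymer of the extracellular matrix, and it also marks lymphatic endothelium. Its level in IM 0h was 107 and 105 TPM, and no other library of the 27 exceeded 8.51 TPM. In IM it was 2.35 and 8.51 TPM at 2h, 1.16 and 3.33 TPM at 6h and 1.48 and 0.338 TPM at 20h. The iMo libraries ran from 0.649 to 4.59 TPM and the AM libraries from 0.288 to 6.29 TPM over all times, and the IM libraries at 6h and 20h overlapped with both. The fitted difference of IM 20h from IM 0h was -5.79 (SE 0.65), the lowest of the 3 times. A list of 8 lymphatic markers summed to 6.26 and 10.8 TPM in IM 0h, against 0.529 and 1.3 TPM in iMo 0h. In both IM 0h libraries Ccl21a was at 0, and the lineage factor Prox1 was at 0.474 and 0 TPM. In IM after LPS the list summed to 3.79 and 2.84 TPM at 2h, 4.08 and 35.4 TPM at 6h and 11.3 and 7.24 TPM at 20h. The 2h sums were thus below both IM 0h sums, and those of 6h and 20h overlapped with them. The part of lymphatic cells in the Lyve1 level was not tested.

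Folr2 encodes folate receptor beta, a receptor anchored to the cell surface by a lipid that binds folate. Its level in IM 0h was 186 and 185 TPM, against 0 and 0.411 TPM in iMo 0h and 0 to 1.05 TPM in the 4 AM 0h libraries. In IM it was 1.02 and 6.96 TPM at 2h, 1.25 and 1.34 TPM at 6h and 26.4 and 21.3 TPM at 20h. Both IM 20h libraries were thus above all 4 earlier IM libraries after LPS and below both IM 0h libraries. The difference of IM 20h from IM 6h was 3.01 (SE 0.82), and from IM 0h it was -2.83 (SE 0.82), both on the log2(TPM + 1) scale after subtracting the median of all genes. In iMo it was 1.37 and 0 TPM at 2h, 0 and 1.70 TPM at 6h and 6.35 and 16.6 TPM at 20h, where both libraries exceeded every earlier iMo library. In AM the gene was listed at 0 in both 2h libraries, at 0.25 to 0.535 TPM at 6h and at 0.321 and 24.8 TPM at 20h, so that 1 library of AM 20h made the mean. Without that library the AM 20h difference from AM 0h was -0.02, and with both it was 2.27 (SE 0.71). On GRCm38, Folr2 lies on the minus strand at chr7:101839988-101857194, where the GENCODE annotation places the antisense gene Gm10602 across it. Of the 50-base stretches of its transcripts, 52.6% also occur in Gm10602, and the strand setting of the counting is not given in the sources used here, so reads of the pair could be mixed.

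Pf4 encodes platelet factor 4 (CXCL4), a heparin-binding chemokine abundant in platelets and also made by some resident macrophages in mice. Its level in IM 0h was 921 and 594 TPM, against 1.51 and 2.10 TPM in iMo 0h and 1.71, 2.35, 12.3 and 12.6 TPM in AM 0h. In IM it was 18.0 and 6.95 TPM at 2h, 4.60 and 42.8 TPM at 6h and 10.5 and 12.1 TPM at 20h, so every IM library after LPS was below IM 0h and the 3 times overlapped. Platelet markers moved in the same contrast: 16 genes summed to 4.98 to 11.7 TPM in IM after LPS and 74.8 and 77.8 TPM in IM 0h, the highest of the 12 groups, against 7.94 to 13.1 TPM in iMo 0h and 13.4 to 54.4 TPM in AM 0h. Their part in the Pf4 level was not tested. In IM 0h Gp9 and Gp6 were at 0 in both libraries and Ppbp, a platelet chemokine, was at 3.53 and 6.53 TPM. Most of that sum was Gng11, a G protein subunit that endothelium also expresses, at 59.2 ± 4.91 TPM (SD, n = 2). In iMo 20h Pf4 stood at 3.90 and 9.81 TPM, both above the iMo 0h libraries, and in AM 20h at 2.36 and 68.1 TPM.

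Retnla encodes a small secreted cysteine-rich protein (RELM-alpha, FIZZ1) that interleukin-4 induces in mouse macrophages. It was the most abundant of the genes in IM 0h, at 3593 and 942 TPM, and also the one on which the 2 replicates differed most. In IM it was 31.7 and 7.37 TPM at 2h, 36.2 and 9.56 TPM at 6h and 1.29 and 5.94 TPM at 20h. The lower of the IM 0h libraries was thus still above every IM library after LPS, and the fitted differences from 0h were -6.00 (SE 0.86) at 2h, -6.00 (SE 0.86) at 6h and -8.76 (SE 0.86) at 20h. In iMo it was 0.818 and 0 TPM at 2h, listed at 0 in both libraries at 6h and 0 and 1.21 TPM at 20h, against 13.5 and 8.20 TPM at 0h, all 6 libraries below both of 0h. AM libraries ran from 0 to 11.5 TPM, the highest being again the 1 library of AM 20h.

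The upstream sequences of the receptor gene Folr2 and of the secreted protein genes Pf4 and Retnla are shown because these genes had the highest IM 0h levels among the receptors and the secreted proteins, so that short patterns before their starts can be set against those of all genes. Each run holds the 250 bases before a transcript start from RefSeq (GRCm38.p6), read 5′ to 3′ on the strand of the gene, and capitals mark matches on either strand to GGAAGT (the core bound by ETS factors such as PU.1), TGCTGA (part of the site bound by MAF factors) or the STAT6 pattern (TTC and GAA with 4 bases between them).
Folr2 (chr7:101857191-101857440, minus strand): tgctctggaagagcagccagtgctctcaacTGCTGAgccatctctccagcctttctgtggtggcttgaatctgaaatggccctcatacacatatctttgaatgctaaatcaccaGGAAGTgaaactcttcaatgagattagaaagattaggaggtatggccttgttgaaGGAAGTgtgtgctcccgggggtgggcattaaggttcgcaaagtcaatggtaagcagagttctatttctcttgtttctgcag
Pf4 (chr5:90772185-90772434, plus strand): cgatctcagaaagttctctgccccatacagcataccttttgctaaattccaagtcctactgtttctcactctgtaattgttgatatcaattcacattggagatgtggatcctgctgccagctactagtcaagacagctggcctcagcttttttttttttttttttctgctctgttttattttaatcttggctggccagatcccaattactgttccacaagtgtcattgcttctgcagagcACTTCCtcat
Retnla (chr16:48842359-48842608, plus strand): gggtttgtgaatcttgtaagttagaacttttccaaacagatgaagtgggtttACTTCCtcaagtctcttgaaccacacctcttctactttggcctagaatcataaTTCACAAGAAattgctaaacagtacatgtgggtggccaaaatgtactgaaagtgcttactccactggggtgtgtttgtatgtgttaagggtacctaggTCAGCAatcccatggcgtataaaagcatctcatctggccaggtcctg

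In the Folr2 window GGAAGT occurs at 136 to 131 and at 81 to 76 bases before the start. In the Pf4 window its reverse complement lies at 10 to 5 bases and in the Retnla window at 198 to 193 bases before the start. RefSeq windows were held for 6 of the 8 genes, 7 windows in all since Folr2 has a pair of starts. GGAAGT was found in 5 of the 7 windows, and in 19.7% of 32851 windows of mouse genes of the same length. TGCTGA was found in 3 of the 7 and in 16.1% of all, and the STAT6 pattern, which reads the same on both strands, in 2 of the 7 (Retnla and Sult1a1) and in 5.85% of all. The AP-1 pattern TGANTCA was in 1 of the 7 and in 6.75% of all. The patterns TTCNNNGAA for other STAT factors (7.02% of all windows), TTGCNNCAA for C/EBP factors (1.74%) and the interferon response pattern (GAAA and GAAA with 2 bases between them, 2.98%) had no match in the 7. No capitals overlap between patterns in the printed runs, and a match describes letters only.

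Cbr2 encodes a carbonyl reductase that reduces aldehydes and ketones. Its level in IM 0h was 211 and 161 TPM, against 4.80 and 10.3 TPM in iMo 0h and 0 to 2.80 TPM in AM 0h. In IM it was 7.34 and 11.4 TPM at 2h, 8.29 and 6.47 TPM at 6h and 20.5 and 7.39 TPM at 20h. All 6 of these libraries lay below IM 0h, within or close to the iMo range of 2.50 to 14.1 TPM. AM libraries stayed at or below 3.09 TPM except for 22.9 TPM in 1 library of AM 20h. Its relatives Cbr1 and Cbr3 also encode carbonyl reductases, and both were called lower in IM 2h and IM 6h: Cbr1 averaged 1.54 ± 0.124 TPM in IM 2h and 10.7 ± 0.208 TPM in IM 0h (SD, n = 2 each; limma adjusted p = 3.29e-05). Of 7 relatives of the 8 genes tested, 3 fell and 1 rose at 2h, and 2 fell and 1 rose at 6h. Among all genes 40.8% fell and 7.99% rose at 2h, and 20.8% fell and 4.63% rose at 6h. The counts of relatives that fell thus lay near the shares of all genes. Of the 50-base stretches of Cbr2 transcripts, 12.1% also occur in the gene model Gm11771.

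Sult1a1 encodes a sulfotransferase that conjugates phenols with sulfate. Its level was 18.0 and 25.5 TPM in IM 0h, and no other library of the 27 exceeded 2.12 TPM. It reached the 5 TPM floor of the filter through the 2 IM 0h libraries alone, so a difference from the other groups was built into its passing. In IM it was 0.739 and 1.21 TPM at 2h, 0.702 and 0.795 TPM at 6h and 0.695 and 0 TPM at 20h. Of the 27 libraries 3 were listed at 0, and the differences after LPS (from -2.72 to -4.02) depend on the pseudocount, running from -1.68 to -6.15 over the other settings tried.

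Tmem119 did not lie below IM 0h in every IM library after LPS. Its level was 2.57 and 3.67 TPM in IM 0h, against 0.851 and 2.07 TPM in iMo 0h and 0 to 0.546 TPM in AM 0h. The highest values were 2.85 and 11.7 TPM in iMo 6h and 2.46 and 6.30 TPM in IM 6h, and it reached 5 TPM in only 2 libraries of the 27. IM were at 0.301 and 0.526 TPM at 2h, 2.46 and 6.30 TPM at 6h and 1.70 and 4.07 TPM at 20h. The IM libraries at 6h and 20h overlapped with IM 0h, and the IM 2h libraries were below it. The fitted difference was 1.77 (SE 0.42) for IM 0h against AM 0h and 0.92 (SE 0.48) against iMo 0h. It was -0.74 (SE 0.48) for IM 2h, 0.83 (SE 0.48) for IM 6h and -0.05 (SE 0.48) for IM 20h against IM 0h. At these levels the libraries of IM 0h were above those of iMo 0h and AM 0h, but the gene did not reach 5 TPM in either IM 0h library.

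The fitted differences put the members side by side. They are on the log2(TPM + 1) scale after subtracting the median difference of the 8937 genes tested, which was -0.15 for IM 0h against iMo 0h, -0.79 for IM 2h, -0.53 for IM 6h and -0.09 for IM 20h against IM 0h, while calls use the difference itself. For IM 0h against AM 0h they were 6.95 (SE 0.71) for Folr2, 5.21 (SE 0.56) for Lyve1, 6.86 (SE 0.88) for Pf4, 8.97 (SE 0.74) for Retnla, 6.34 (SE 0.63) for Cbr2 and 3.71 (SE 0.32) for Sult1a1, with Tmem119 at 1.77 (SE 0.42) and Mrc1 at -1.35 (SE 0.53). Against iMo 0h the largest were 8.20 (SE 1.02) for Pf4, 7.46 (SE 0.86) for Retnla and 7.44 (SE 0.82) for Folr2. Mrc1 was at 3.77 (SE 0.61) there, with IM 0h libraries between those of iMo and AM. Of the 8 genes, 7 were called at a limma adjusted p under 0.05 for IM 0h against AM 0h and 7 for IM 0h against iMo 0h, where 26.0% and 7.06% of all genes were called. For IM after LPS against IM 0h, 8 were called at 2h, 7 at 6h and 7 at 20h, where 48.7%, 25.5% and 12.4% of all genes were called. The choice of genes used these contrasts, and nothing is read from the counts.

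All 8 genes stood below IM 0h in both IM 2h libraries. There the fitted differences from IM 0h were -5.12 (SE 1.02) for Pf4, -4.75 (SE 0.82) for Folr2, -3.45 (SE 0.65) for Lyve1, -3.39 (SE 0.73) for Cbr2, -1.94 (SE 0.61) for Mrc1 and -0.74 (SE 0.48) for Tmem119. At 20h the fitted differences of Lyve1, Pf4, Mrc1, Retnla and Sult1a1 were the lowest of the 3 times, whereas that of Folr2, at -2.83, was the highest. In TPM the 20h libraries overlapped with those of 2h and 6h for Pf4 and Mrc1, and with those of 6h for Lyve1. Comparing 20h with 6h in IM, the differences were 3.01 (SE 0.82) for Folr2, 0.27 (SE 0.73) for Cbr2, -0.77 (SE 1.02) for Pf4, -1.09 (SE 0.61) for Mrc1, -1.16 (SE 0.65) for Lyve1 and -2.73 (SE 0.86) for Retnla. With the title code as a covariate, which rests on 1 AM 0h library, the 2h difference was -5.96 (SE 1.18) for Folr2 and -2.52 (SE 0.91) for Lyve1, and the 20h difference was -4.43 (SE 1.24) for Folr2.

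**Figure D2:**
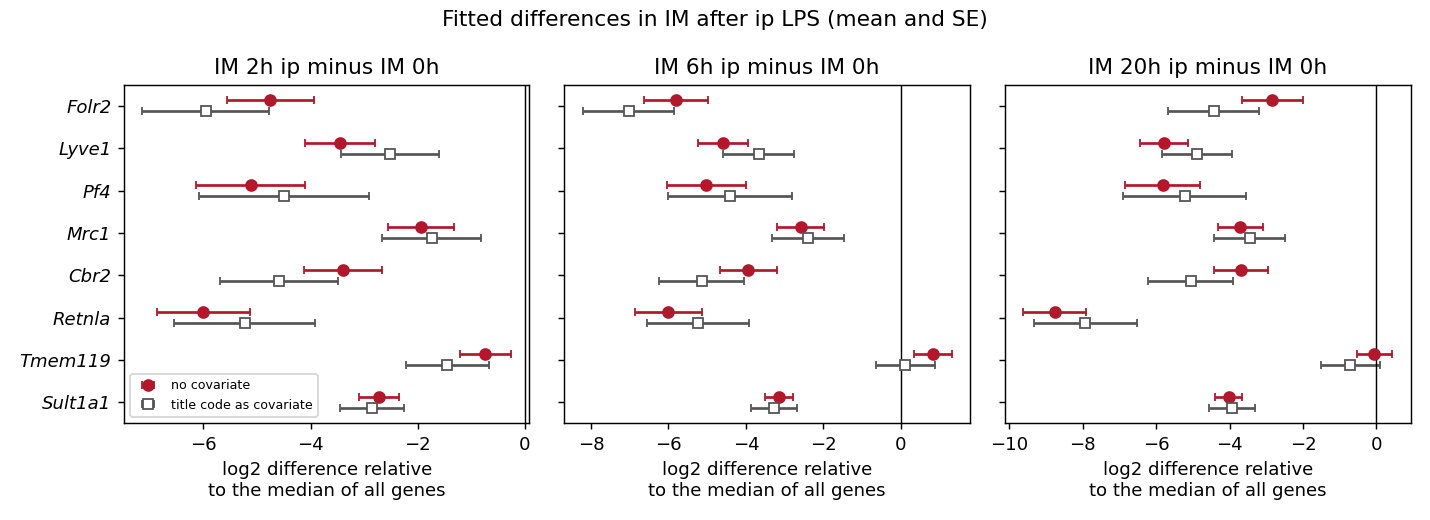
Fitted log2 difference of IM at 2, 6 and 20h after ip LPS from IM 0h for each gene, after subtracting the median over all genes, with SE bars; filled points have no covariate and open squares have the title code as a covariate. All genes but Tmem119 lie below 0 in both fits at every time, from -1.94 (Mrc1, 2h) to -8.76 (Retnla, 20h) without the covariate.

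The responses of the cell types to LPS are set side by side for Retnla and Folr2, since each rests on its own 0h libraries. Retnla differed from 0h by -8.76 (SE 0.86) in IM 20h, -2.65 (SE 0.86) in iMo 20h and 0.51 (SE 0.74) in AM 20h. The AM value rests on libraries of 0.388 and 11.5 TPM and ran from -1.23 to 2.24 with 1 library left out, so its sign turned. Folr2 differed from 0h by -2.83 (SE 0.82) in IM 20h, 3.57 (SE 0.82) in iMo 20h and 2.27 (SE 0.71) in AM 20h, the last resting on 1 library. At 20h both IM libraries (26.4 and 21.3 TPM) were still above both iMo libraries (6.35 and 16.6 TPM). At 0h IM stood at 186 and 185 TPM and iMo at 0 and 0.411 TPM. The differences between cell types were not tested.

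Other genes of the same resident macrophage subset were read as a list. Of 22 genes, 21 were tested, and 13 of these reached the 5 TPM floor in 2 libraries only through IM 0h, so that a higher level there was built into their passing. Of the other 8, at 0h 5 were called higher and 1 lower in IM against AM, and 3 were called higher against iMo. Of all genes that did not pass through IM 0h alone, 12.8% were called higher against AM and 4.19% against iMo. In IM after LPS 6 of the 8 fell at 2h, 5 at 6h and 5 at 20h, where 39.1%, 18.8% and 6.16% of the genes that did not pass through IM 0h alone fell. Over all 21 genes 19, 18 and 17 were called lower at the 3 times, and 18 and 16 were called higher at 0h against AM and iMo. Of all genes tested, 1344 of 8937 were called higher and 982 lower against AM, and 6.32% higher and 0.739% lower against iMo. After LPS 40.8% fell and 7.99% rose at 2h, 20.8% fell and 4.63% rose at 6h, and 8.39% fell and 4.05% rose at 20h. With the title code as a covariate 9 of the 21 fell at 20h. The chemokine gene Ccl8 was at 2.99 ± 2.49 TPM in IM 2h and 269 ± 54.8 TPM in IM 0h (SD, n = 2 each). The lectin gene Cd209f was listed at 0 in both libraries of IM 6h and of IM 20h, against 54.6 ± 4.03 TPM in IM 0h. Both passed the filter through IM 0h alone, so no p-value is given for them. Selenop, a selenium carrier, was at 22.9 ± 5.52 TPM in IM 6h and 986 ± 105 TPM in IM 0h (limma adjusted p = 4.87e-07). The transcription factor gene Maf, on the same list, was at 73.5 and 65.3 TPM in IM 20h, against 55.4 and 36.7 TPM in IM 0h. The scavenger receptor gene Stab1 was at 1.21 and 1.38 TPM in IM 2h and at 16.5 and 13.6 TPM in IM 20h, against 21.3 and 16.1 TPM in IM 0h, and it was at 13.2 and 17.7 TPM in iMo 20h, against 1.55 and 1.11 TPM in iMo 0h.

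A list of 14 genes shared by interstitial macrophages in general was read beside it, all 14 having passed the filter without IM 0h. Of these 9 fell at 2h, 9 at 6h and 5 at 20h in IM, and the others were not called. Among all genes that did not pass through IM 0h alone, 39.1%, 18.8% and 6.16% fell. With the title code as a covariate 5 fell at 2h, 3 at 6h and 2 at 20h. With any 1 of both IM 0h libraries and IM 6h ip160623 left out, 5 fell at 6h, and at 20h 3 fell without IM 0h A171227 and 2 without IM 20h A161219. C1qb, a chain of complement C1q, was at 61.0 ± 40.1 TPM in IM 2h and 1084 ± 69.5 TPM in IM 0h (SD, n = 2 each; limma adjusted p = 0.00568). At 20h C1qb was at 952 and 1039 TPM in IM and at 1014 and 898 TPM in iMo, against 16.8 and 22.6 TPM in iMo 0h. Trem2, a lipid receptor, was at 5.25 ± 0.759 TPM in IM 20h and 75.0 ± 6.32 TPM in IM 0h (limma adjusted p = 0.000889). All 10 genes of MHC class II, the antigen presentation molecules, were called lower at 2, 6 and 20h, where 40.8%, 20.8% and 8.39% of all genes were. Of these 10 genes 2 passed the filter through IM 0h alone. H2-Eb1 was at 29.9 ± 0.433 TPM in IM 20h and 1507 ± 352 TPM in IM 0h (limma adjusted p = 4.38e-05). Of 20 genes of the response to LPS, 19 rose at 2h, 17 at 6h and 9 at 20h, where 7.99%, 4.63% and 4.05% of all genes rose. They were led by the acute-phase gene Saa3 at 7804 ± 2792 TPM in IM 2h and 9.37 ± 0.96 TPM in IM 0h (limma adjusted p = 9.09e-09).

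**Figure D3:**
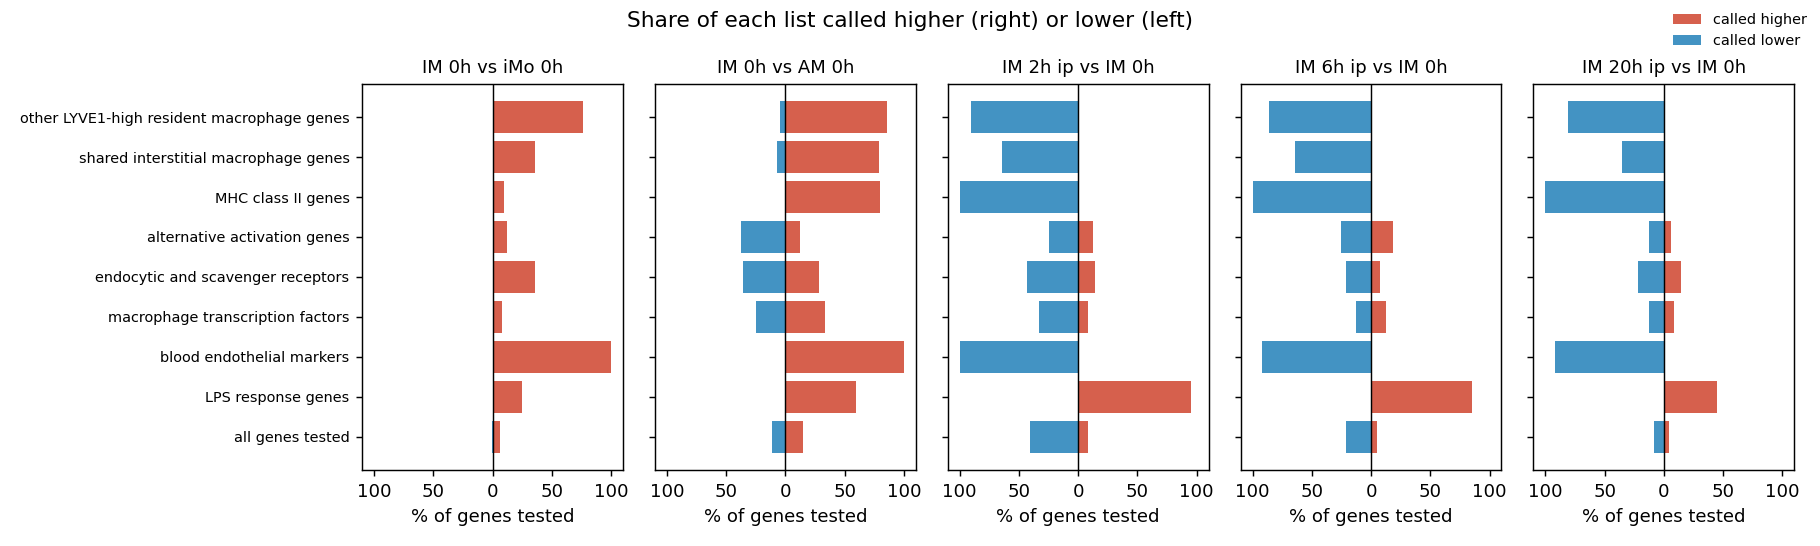
Percent of the tested genes of each list, and of all 8937 genes tested, called higher (right) or lower (left) at a limma adjusted p under 0.05, for IM 0h against iMo 0h and AM 0h and for IM at 2, 6 and 20h after ip LPS against IM 0h. The list of other LYVE1-high genes was called lower in 19, 18 and 17 of 21 genes over the 3 times, 13 of which passed the filter through IM 0h alone, and the blood endothelial list in 12, 11 and 11 of 12.

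Retnla and Mrc1 are also known as genes of the interleukin-4 or alternative activation programme, and 16 other such genes were tested. In IM after LPS 4 of the 16 fell and 2 rose at 2h, 4 fell and 3 rose at 6h, and 2 fell and 1 rose at 20h. The shares that fell, 4 of 16 at 2h and at 6h, lay below and near the 40.8% and 20.8% of all genes. At 20h 8.39% of all genes fell, and 7.99%, 4.63% and 4.05% of all genes rose at 2, 6 and 20h. With 1 or the other IM 0h library left out, or adjusting for the title code, 2 fell at 6h. Mgl2, a galactose-type lectin, passed the filter through IM 0h alone, and was at 0.249 ± 0.353 TPM in IM 20h and 96.9 ± 5.56 TPM in IM 0h (SD, n = 2 each). Clec10a, its close relative, was at 5.17 ± 1.45 TPM in IM 20h and 43.4 ± 7.32 TPM in IM 0h (limma adjusted p = 0.000308). Arg1, an arginine-degrading enzyme, went the other way with 51.3 ± 21.5 TPM in IM 20h and 0.2 ± 0.283 TPM in IM 0h (limma adjusted p = 0.000601). The chitinase-like gene Chil3 was at 1406 ± 741 TPM in IM 6h and 401 ± 187 TPM in IM 0h (limma adjusted p = 0.0343), so the list did not move as one. Retnlg, the relative of Retnla that neutrophils express, was at 729 and 1239 TPM in IM 20h, against 1219 and 461 TPM in IM 0h, and at 108 and 61.8 TPM in iMo 20h, against 3.06 and 0.733 TPM in iMo 0h.

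Other uptake receptors and genes of the ligands' pathways were read next. Of 14 endocytic and scavenger receptors tested beside Mrc1, Lyve1 and Folr2, 6 fell and 2 rose at 2h, 3 fell and 1 rose at 6h, and 3 fell and 2 rose at 20h. The counts that fell at 2h and 6h lay near the shares of all genes, 40.8% and 20.8%. At 20h 8.39% of all genes fell, and 7.99%, 4.63% and 4.05% rose at the 3 times. Adjusting for the title code, 1 fell at 6h and 1 at 20h. The haemoglobin receptor gene Cd163, which passed the filter through IM 0h alone, was at 3.32 ± 0.579 TPM in IM 20h and 21.9 ± 5.36 TPM in IM 0h (SD, n = 2 each). Marco, a scavenger receptor for bacteria, was at 99.5 ± 64.4 TPM in IM 20h and 3.42 ± 1.36 TPM in IM 0h (limma adjusted p = 0.00032). Of 10 folate uptake and one-carbon genes, 1 rose and 1 fell at 2h, 0 were called at 6h, and 2 rose and 1 fell at 20h. These small counts stand beside the same shares of all genes. Folr1, another folate receptor, was at or below 1.10 TPM in every IM library. Of 4 hyaluronan genes, 2 rose and 1 fell at 2h and 1 fell at 6h and at 20h, beside the same shares of all genes. Tnfaip6, which encodes a hyaluronan-binding protein, was at 21.2 ± 14.5 TPM in IM 2h and 1.03 ± 0.105 TPM in IM 0h (limma adjusted p = 4.64e-06). Tmem2, a cell surface hyaluronidase gene, was at 22.7 ± 7.23 TPM in IM 2h and 7.2 ± 0.126 TPM in IM 0h (limma adjusted p = 0.000813). Hyal2, a hyaluronidase, was the gene that fell at all 3 times, and was at 8.18 ± 3.14 TPM in IM 20h and 27.9 ± 1.5 TPM in IM 0h (limma adjusted p = 0.0114). Of 5 sulfotransferase and sulfate donor genes, 2 fell at 2h and 1 at 6h, which are near the shares of all genes.

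Likeness of pattern was measured with Pearson r over the 12 group means of log2(TPM + 1), which share libraries and a common scale and so describe these groups only. The 28 pairs among the 8 genes had r from -0.64 to 0.92, with a median of 0.69. The genes most like the mean profile of the 8 were Ccl8 (r = 0.970), Gas6 (r = 0.961), Fcrls (r = 0.955), Pla2g2d (r = 0.954) and Ms4a7 (r = 0.954). Of these Ccl8, Gas6, Fcrls and Pla2g2d, and also Cd79a below, passed the filter through IM 0h alone. A profile highest in IM 0h was thus built into their passing, and nothing is read from their likeness. Whether Lysmd2, Vegfa, Cd55 and Des, named below, also passed through IM 0h alone is not given here. Sult1a1 itself passed that way, so nothing is read from the likeness of these genes either. Gas6 encodes a ligand that bridges apoptotic cells to their receptors, and it averaged 27 TPM in IM 0h, against 0.343 TPM in iMo 0h and 0.47 TPM in AM 0h. The closest gene to Folr2 was C1qa (r = 0.938), to Lyve1 Lysmd2 (r = 0.980), to Pf4 Vegfa (r = 0.950) and to Cbr2 Cd55 (r = 0.933). The closest gene to Retnla was the B cell gene Cd79a (r = 0.956) and to Sult1a1 the muscle and pericyte gene Des (r = 0.963). The closest to Mrc1 was Ptgfrn (r = 0.990), which like Mrc1 was higher in AM, and the closest to Tmem119 was the lactate transporter gene Slc16a3 (r = 0.943).

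Markers of other lung cells moved with the same contrast. All 12 blood endothelial markers were called higher in IM 0h against AM 0h and against iMo 0h, and 12, 11 and 11 of them were called lower in IM at 2, 6 and 20h. Of these 12 genes 5 passed the filter through IM 0h alone, and of the other 7, 7, 6 and 6 were called lower. Among all genes that did not pass through IM 0h alone, 39.1%, 18.8% and 6.16% were called lower. Their sum was 15 to 60.6 TPM in the 6 IM libraries after LPS and 694 and 1107 TPM in IM 0h, whereas it was 17.0 and 77.8 TPM in iMo 0h and 11.9 to 127 TPM in AM 0h, which share the title code in part. Cldn5, a junction protein of endothelium, averaged 2.64 ± 2.41 TPM in IM 20h and 192 ± 9.22 TPM in IM 0h (SD, n = 2 each). Alveolar epithelial markers summed to 18.0 to 51.3 TPM in IM after LPS and 302 and 657 TPM in IM 0h. In iMo they summed to 123 and 164 TPM at 0h and 11.6 to 24.7 TPM after LPS. In AM they summed to 36.8 to 226 TPM at 0h and 25.6 to 96.7 TPM after LPS. Fibroblast and mesothelial markers summed to 4.54 to 15.1 TPM in IM after LPS and 213 and 267 TPM in IM 0h. Lymphocyte markers summed to 14 to 38.3 TPM in IM after LPS and 127 and 142 TPM in IM 0h. The part of these cells in the levels of the 8 genes was not tested.

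**Figure D4:**
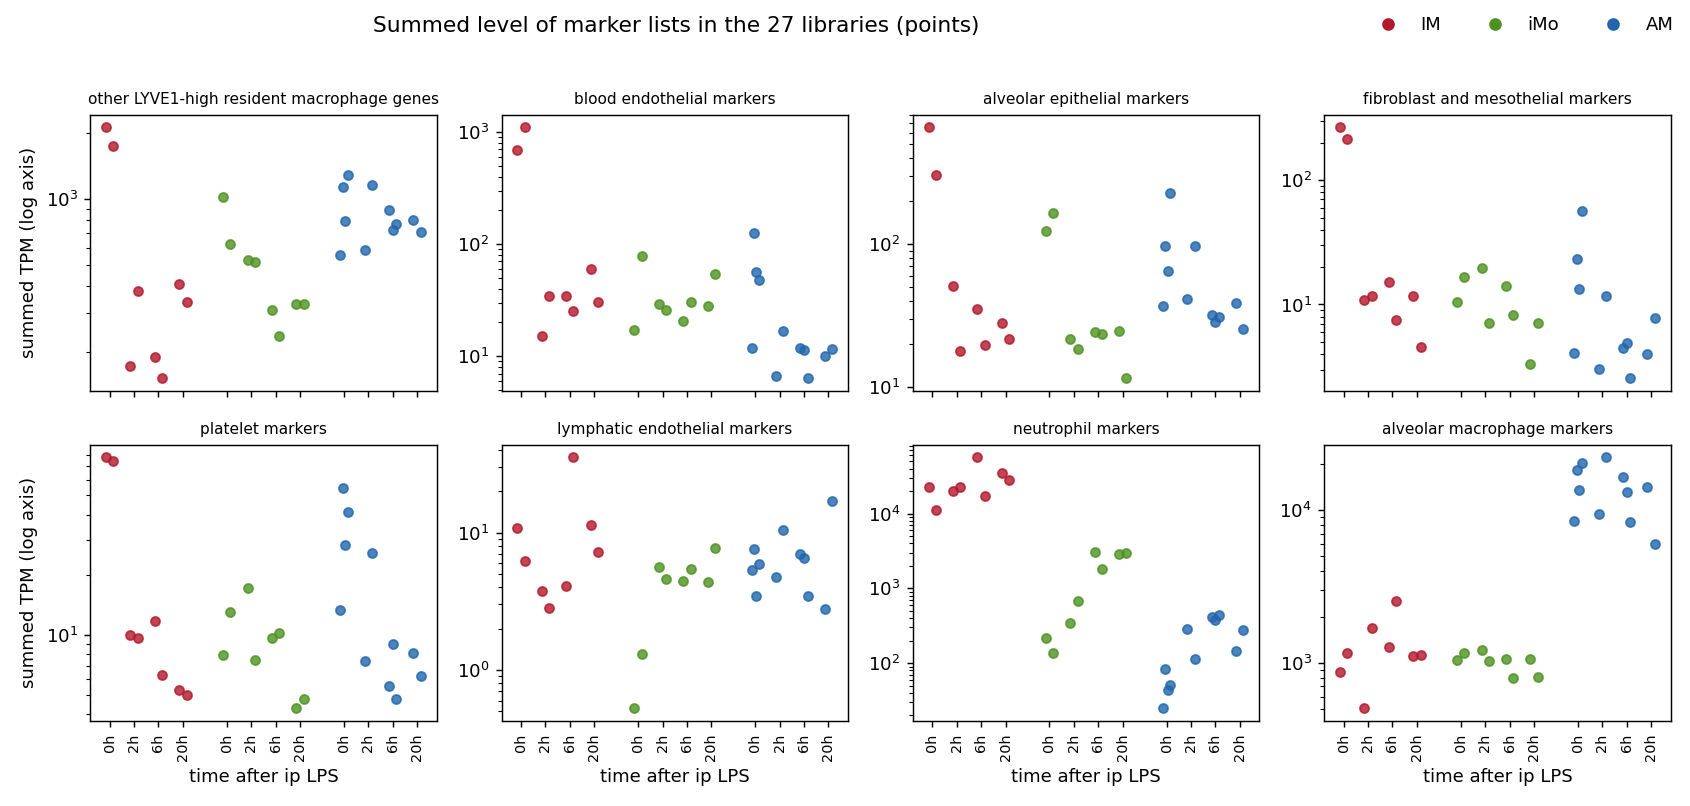
Summed TPM (log axis) of marker lists in each of the 27 libraries (points) for IM, iMo and AM by time after ip LPS. The 2 IM 0h libraries stand apart for the other LYVE1-high genes and for blood endothelial, alveolar epithelial and fibroblast markers, lymphatic markers stay low, and neutrophil markers are high in all IM libraries.

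In AM 20h the 2 libraries differed in genes of other macrophages. Beside Folr2 at 24.8 TPM and Pf4 at 68.1 TPM, the replicate A161219 held C1qb at 416 TPM and the apolipoprotein gene Apoe at 2933 TPM. In the replicate ip160623 C1qb was at 2.83 TPM and Apoe at 13.3 TPM. Mrc1, the member that AM express at the highest level, was at 92.7 TPM in A161219 and 183 TPM in ip160623. The AM marker Siglecf was at 43.9 TPM in A161219 and 74.6 TPM in ip160623. Without A161219 the AM 20h differences from AM 0h were -0.02 for Folr2, -0.76 for Pf4 and 0.41 for Cbr2, and with both they were 2.27 (SE 0.71), 1.57 (SE 0.88) and 2.13 (SE 0.63).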

How the data were processed

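The deposited table holds TPM values computed by the authors for 23594 gene rows. Per the submitters' processing notes STAR and HOMER were used with mm10; which versions, annotation and strand setting is not given in the sources used here. TPM keep no read depth, so precision was judged from replicates. Of 45 libraries, 27 were used. In the 18 nasal LPS columns the row names did not match the values (r with the other columns 0.01 to 0.025, against 0.757 to 0.989 among the 27), and these were not used. The labels' 20h was taken where the series text gives another hour. limma 3.58.1 in R 4.3.3 was fitted to log2(TPM + 1) with 1 coefficient per group and a mean-variance trend, on the 8937 genes that reached 5 TPM in 2 or more libraries, with Benjamini-Hochberg adjustment over all of them and a threshold of 0.05, and was tested on simulated data. The members and lists were chosen with earlier results of these data known; named list genes are up to 4 per list and comparison with the largest differences among those called, and Maf, Stab1, C1qa and C1qb at 20h, Retnlg at 20h, Folr1, Apoe, Siglecf and Gng11 were chosen after their values were seen. Alternatives changed the pseudocount (0.1 and 5 TPM), filter, scaling, covariates, weights and libraries. Loci are from GENCODE on GRCm38, and promoter sequences from RefSeq.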

Additional observations from a re-analysis of the deposited data

Results flagged for a closer look

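In 5 places cell types lay on opposite sides of their own 0h mean in TPM after ip LPS. Every library of one cell type was above that mean and every library of the other below it. This does not set libraries apart from 0h: AM libraries overlapped with AM 0h for Mrc1 at 6h and for Cbr2 at 20h. The values that follow are the differences between the 2 responses on the log2 scale, and none of them was tested. For Mrc1 at 6h the IM response minus the AM response was -3.29 and the iMo response minus the AM response was -0.56. For that second pair the opposite sides hold in TPM alone: relative to the median of all genes both were positive, 0.14 in iMo and 0.70 in AM. For Folr2 at 20h the IM response minus the iMo response was -6.40, and for Pf4 at 20h it was -7.51. For Cbr2 at 20h the IM response minus the AM response was -5.82, of which the AM part was 2.13, and 0.41 without the AM 20h library A161219. Among the 8 genes in AM 0h, the only group with 4 libraries, no library stood far from the others by Dixon's criterion.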

How the results depend on the processing

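Of 40 values of the 8 genes in the 5 comparisons, 38 kept their sign under every alternative run, and the other 2 are Tmem119 in IM 6h and IM 20h. The counts of genes called moved more. For IM 0h against AM 0h, 2326 genes were called, 3493 with quantile normalization and 1401 with a replicate block. For IM 0h against iMo 0h, 631 were called, 975 without a filter and 1254 with array weights, and the block gave 763. For IM 2h, 6h and 20h against IM 0h, 4356, 2275 and 1112 were called; with the title code as a covariate 1465, 430 and 184; and with the replicate block 677, 149 and 47. For IM 20h quantile normalization gave 2220, rescaling without Rn45s and Lars2 1776 and array weights 2299. Leaving out 1 library gave 1650 to 2420, 378 to 538, 2974 to 4338, 1124 to 1526 and 642 to 713 genes in the 5 comparisons in that order. Calls higher made up 57.8, 89.5, 16.4, 18.2 and 32.6% of calls in the same order, and 43.0, 63.5, 48.5, 51.8 and 55.1% with quantile normalization; rescaling without Rn45s and Lars2 gave 37.4% for IM 0h against AM 0h, 31.0% for IM 6h and 58.2% for IM 20h. The cause was not tested, except that leaving out a library leaves fewer samples. Replicate labels recur across groups, but the labels do not state that they pair samples, and deviations of same-labelled libraries correlated from -0.21 to 0.50 over group pairs. TPM without counts leave the precision of values below the 5 TPM floor unknown.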
